A study of Mus musculus with 12 samples.

Results

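Expression was compared between 3 of the 12 one-colour arrays of the series: the array labelled Hmga2 (the Hmga2 array below) and the arrays labelled EGFP and mock, chosen because all 3 stood on 1 slide. Each held RNA from neural progenitor cells of the 129/Ola mouse strain. The Hmga2 and EGFP cultures were infected with a retrovirus that carried the open reading frame in the vector pMXs-IRESNeo, at a titre that left about 95% of cells expressing it. Selection with G418, to which the vector makes cells resistant, began at 24 h and cells were collected at 72 h. The labels do not say how the mock culture was treated, with virus or with G418. Labelling started from 0.25 µg of RNA. EGFP, a fluorescent protein, served as a control for infection and selection. The other 9 arrays held cultures given Gatad2b, Etv6 or Nfxl1, or Pax6 or Esx1, or else Crebzf, Pdx1, Sox11 or Zfp451. Each culture was measured on 1 array, so no difference below carries a p-value or an error of its own.

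Hmga2 is a small chromatin protein that binds the minor groove of AT-rich DNA through its AT-hook motifs and alters how other factors reach promoters. It is abundant in embryonic tissue and tumours and falls with age as let-7 microRNAs rise. In neural stem cells it is known for keeping cells dividing, in part by holding down the Cdkn2a locus, which encodes the cell cycle inhibitors p16Ink4a and p19Arf. The question put to the 3 arrays was which genes, singly or in groups, stood apart from both controls after its overexpression.

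Levels are log2 intensities relative to the 75th percentile of each array, so a level of 0 equals that percentile. Of 27655 genes with a value on the 3 arrays, 17502 were well above background on all 3, and these are called well measured. Another 2034 were well above background on 1 or 2 of the 3. Between 62.9% and 69.4% of spots were well above background on the 12 arrays, and no spot was saturated. Of 21 neural progenitor markers on the array, 14 were well measured, among them Vim, Nes, Gli3, Msi2, Slc1a3 and Sox2. Emx2, Fabp7, Nr2e1, Olig1, Otx2 and Sox3 were not well above background on any of the 3 arrays.

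The Hmga2 gene itself was read by 3 probes, all well above background on the 12 arrays and all on the minus strand of chromosome 10 in the mm7 coordinates of the files. The brightest, at chr10:119755899-119755958, had a level of 5.29 on the Hmga2 array, 5.11 on EGFP and 5.06 on mock. It was the highest of the 12 arrays there, where the other 9 ran from 3.84 to 5.12, but its excess of 0.17 and 0.22 did not pass the spread between both controls at that level, and its position differences, defined below, were 0.15 and 0.13. The second probe, at chr10:119756830-119756889, read 1.85, 1.88 and 1.89 in the same order. The last, at chr10:119769076-119769135, read 0.48, 0.53 and 0.77, lowest on the Hmga2 array. The insert holds the open reading frame only, and whether any of these probes lies in it was not established, so the probes do not check the label.

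Differences between arrays depended on the level of the gene. The median absolute log2 difference between EGFP and mock was 0.07 over all well-measured genes, against 0.12 between Hmga2 and EGFP and 0.11 between Hmga2 and mock. When genes were put in 10 bins of level, the median absolute difference between both controls ran from 0.24 in the dimmest bin to 0.05 in the brightest. A trend with level also separated the Hmga2 array. Its median difference from EGFP was -0.14 in the dimmest bin and 0.06 in the brightest, and from mock -0.08 and 0.04. Against EGFP alone 83 genes were at least 2-fold higher (0.474%) and 144 lower (0.823%), against mock alone 92 (0.526%) and 147 (0.84%). Between EGFP and mock these were 37 (0.211%) and 50 (0.286%). Probes spotted 10 times gave a median SD between spots of 0.05 to 0.07 within these arrays. A difference as small as 0.1 is therefore above the error of spotting for such probes, while the error between cultures is known only from the control pair.

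**Figure D1:**
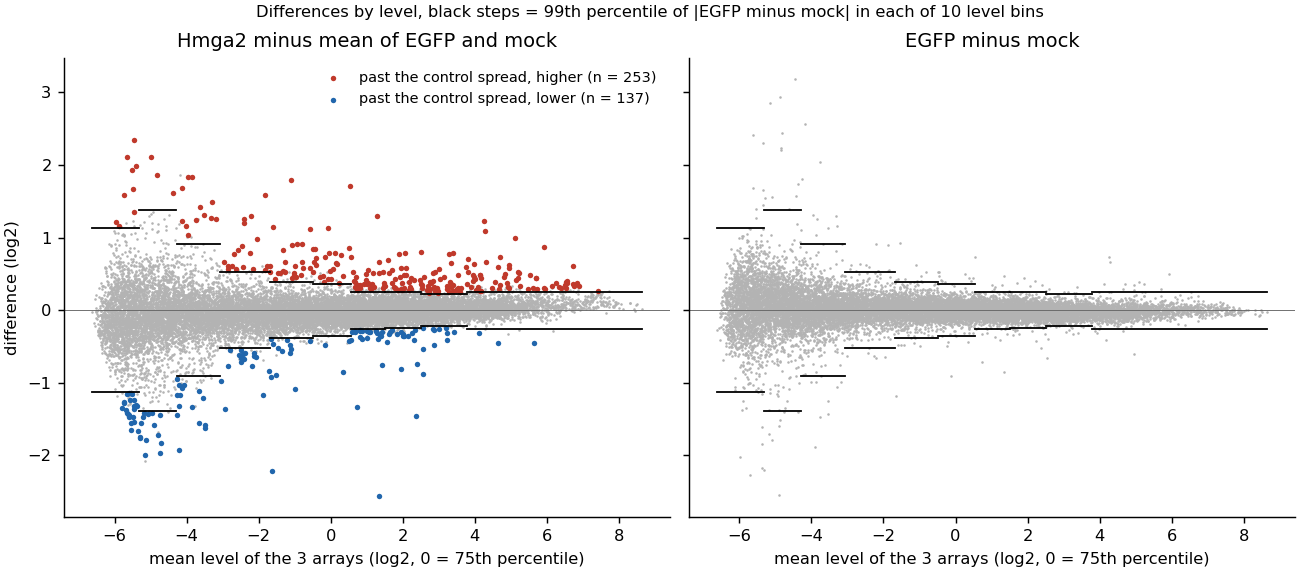
Each point is 1 of 17502 well-measured genes, with the mean log2 level of the 3 arrays on the x axis and a log2 difference on the y axis, for Hmga2 against the mean of both controls (left) and EGFP against mock (right). Black steps mark the 99th percentile of the absolute EGFP minus mock difference in each of 10 level bins, and the coloured genes, 253 higher and 137 lower, passed it against both controls.

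The place of an array on its slide moved with the results, and its values are given beside them. On the slide used here mock stood at position 1, EGFP at position 2, Pax6 at position 3 and Hmga2 at position 4. On the other slides position 4 held Nfxl1 and Zfp451, position 1 Gatad2b and Pdx1, and position 2 Etv6 and Sox11. A position difference below is position 4 minus the mean of positions 1 and 2 on one of those slides, which share no sample with the Hmga2, EGFP and mock arrays. Over the 12246 genes in the brighter 7 bins, the difference of Hmga2 from the mean of both controls correlated with the position difference at Pearson's r = 0.34 on slide 2 and r = 0.55 on slide 3. Over all 17484 well-measured genes with these values, r was 0.30 and 0.21. Those position differences also hold the effects of Nfxl1 and Zfp451 and of the factors at positions 1 and 2. The share of the Hmga2 differences that goes with position was therefore not tested. Named genes and the main lists are also given after the matched position difference, averaged over both slides, was subtracted.

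Differences of 3 sizes were counted, each required against EGFP and against mock. At least 2-fold, 41 genes were higher on the Hmga2 array, 0.234% of the well-measured genes, and 81 were lower, 0.463%. At least 1.5-fold, 159 were higher (0.908%) and 280 lower (1.6%). The last rule asked that the smaller of both differences exceed the 99th percentile of the EGFP minus mock difference in the gene's level bin, and genes that met it are said to be past the control spread. By it 253 genes were higher, 1.45%, and 137 lower, 0.783%. The split between higher and lower calls moved with the scaling. Higher genes were 33.6% of those past 2-fold and 43.7% with quantile normalization, and 64.9% of those past the spread and 75.6% when arrays were scaled to their median. With a normexp background correction 4 genes were at least 2-fold higher and 3 lower. Of all well-measured genes, 34.4% lay above both controls by any amount and 43.8% below both.

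Most genes past the spread in the upward direction were also higher at position 4 on the other slides. Of the 253, 200 had a higher value at position 4 on both other slides, against 21.1% of all well-measured genes. EGFP also read above mock for 195 of the 253, against 8773 of all 17502. The Hmga2 array was the highest of all 12 for 194 of the 253, against 10.1% of all genes. Of the 137 lower genes, 66 had a lower value at position 4 on both other slides, against 37.8% of all, and 40 were the lowest of the 12, against 8.66%. EGFP read above mock for 64 of the 137. Names of clones, predicted genes or olfactory and vomeronasal receptors made up 117 of the higher genes (46.2%) and 46 of the lower (33.6%), against 24.8% of all well-measured genes. After the position differences were subtracted, 35 of the higher genes (0.2% of all well-measured genes) and 48 of the lower (0.274%) were still past the spread. The limit was left as set by EGFP and mock. The subtracted values also carry the differences among the other cultures, which that limit does not cover. With genes that passed it only after subtraction, 80 were higher (0.457%) and 100 lower (0.571%). Called genes often had other probes. Of 94 other well-measured probes of the higher genes, 56 lay above both controls and 20 below both, and of 63 of the lower genes, 42 lay below both and 13 above. Over all 8903 such probes, 3031 lay above both controls and 3830 below. For the genes still past the spread after subtraction, 6 of 10 other probes of the higher genes lay above both and 1 below, and 11 of 22 of the lower genes lay below both and 7 above.

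**Figure D2:**
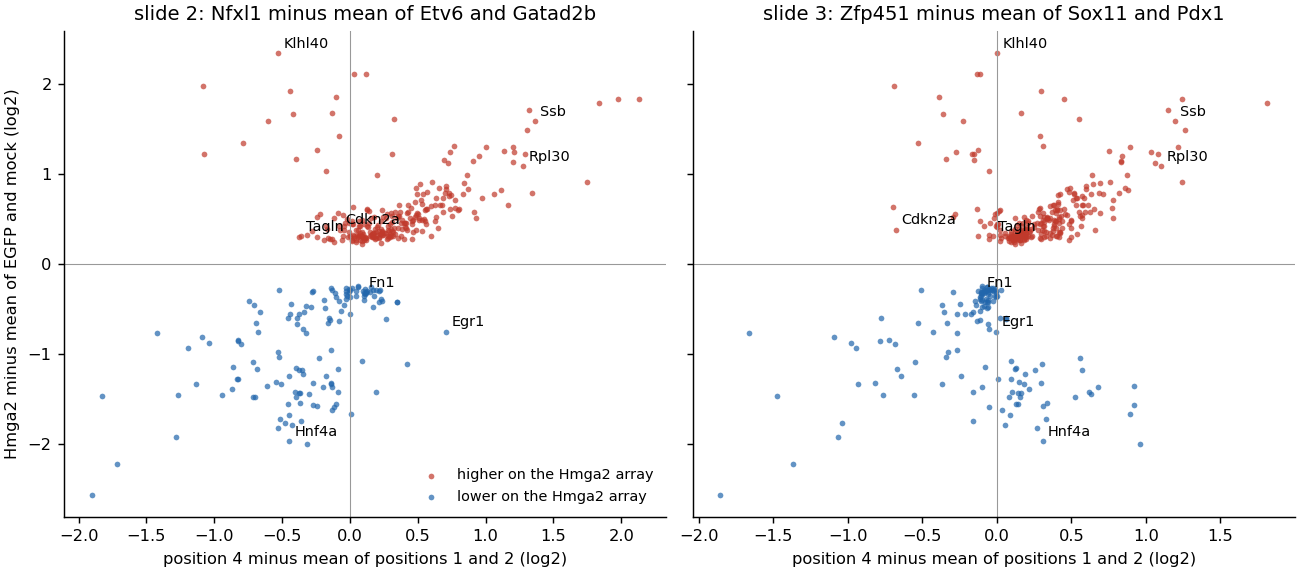
The y axis gives the log2 difference of Hmga2 from the mean of EGFP and mock for the genes past the control spread (red higher, blue lower), and the x axis the log2 difference between position 4 and the mean of positions 1 and 2 on slide 2 (left) and slide 3 (right). Higher genes such as Ssb and Rpl30 lie far to the right on both slides, while Tagln, Cdkn2a and Klhl40, also higher, lie near 0 or left of it, and Egr1, which was lower, lies near 0 or right of it.

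Ssb was among the genes whose level rose in the order of position. It encodes the La protein, which binds the ends of RNA polymerase III transcripts. Its level was -2.64 on mock, -2.09 on EGFP and -0.78 on Hmga2. Its position differences were 1.36 and 1.19, and 0.27 was left of the smaller difference of 1.31 once they were subtracted. Rpl30, a protein of the large ribosomal subunit, read 3.59 on mock, 4.25 on EGFP and 5.01 on Hmga2, with position differences of 1.28 and 1.10, and its difference from the control mean became -0.10 after subtraction. Syt10, a synaptotagmin, read -1.12, -0.75 and 0.18 in that order, and Srrm3, a splicing regulator of the nervous system, -2.20, -1.76 and -0.83, with position differences between 0.72 and 1.06. Ddx23, a helicase of the spliceosome, read -2.54, -2.22 and -1.39. In all 5 the order was mock, EGFP, Hmga2, the order of their positions on the slide, and none stayed past the spread after subtraction. The same held for Vim, the intermediate filament vimentin of neural progenitors, which read 6.38 on mock, 6.46 on EGFP and 6.79 on Hmga2, had position differences of 0.29 and 0.22 and kept 0.10. Hmgb2, another chromatin protein of the high mobility group, read 4.58, 4.75 and 5.12 and kept 0.05.

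Some genes of the contractile apparatus stood above both controls. Tagln encodes transgelin, an actin-binding protein of smooth muscle and of cells under tension. Its level was 2.74 on Hmga2, 2.37 on EGFP and 2.49 on mock, 1.24-fold above the control mean, and its second probe read 0.02, -0.39 and -0.26. Myl9, the regulatory light chain of smooth muscle myosin, read 4.11 on Hmga2, 3.73 on EGFP and 3.84 on mock. Actg2, smooth muscle gamma actin, read 2.06, 1.68 and 1.58, and its Hmga2 value was the highest of the 12 arrays. Actc1, cardiac alpha actin, read -2.34, -2.97 and -2.90. These 4 of the 16 genes in the muscle and smooth muscle list were past the spread upward, against 1.45% of all well-measured genes. No member was past it downward, against 0.783% of all. Tagln, Myl9 and Actg2 stayed past it after the position differences were subtracted, with smaller differences of 0.36, 0.34 and 0.30, whereas Actc1 kept 0.18. Position differences on slides 2 and 3 were -0.36 and -0.03 for Tagln, -0.32 and -0.05 for Myl9, 0.07 and 0.17 for Actg2 and 0.13 and 0.42 for Actc1. The list was chosen after its values were seen, since its medians, 0.13 against EGFP and 0.08 against mock, lay close to its EGFP minus mock median of 0.10. After subtraction the medians were 0.17 and 0.18 with 12 of 16 members above both controls and 1 below, against 37.7% and 33.2% of all genes. Acta2, smooth muscle alpha actin, differed by 0.20 and 0.29 and Cnn1, calponin, by 0.12 and 0.27, neither past the spread. Des, desmin, differed by -0.49 and -0.06. Since the RNA came from whole cultures, more cells of a type and more RNA per cell cannot be told apart.

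The same genes spanned a much wider range on the other arrays. Myl9 ran from 4.15 to 6.54 and Tagln from 2.78 to 4.64 on the other 9, so that the Hmga2 array, though above EGFP and mock, ranked below each of them. In size the excess over the controls is small beside that range.

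Many contractile genes are controlled by serum response factor, which binds the CArG box, a pair of C, then 6 letters that are each A or T, then a pair of G. The 250 bases before the start site were searched in the RefSeq promoter table (build GRCm38.p6) for 13 genes of the muscle and smooth muscle list that it holds. It holds no entry for Tagln or Actg2, so these were not searched. Of the 13, 4 carried a CArG box: Actc1, Myl9, Cnn2 and Acta1. Cnn2 and Acta1 were not past the control spread. The box, which reads alike on both strands, was found in 1.40% of 27018 promoters. The promoters of Actc1 and Myl9, both past the control spread, and of Cnn2, which differed by 0.14 from EGFP and 0.28 from mock, are shown with the box in capitals, written 5′ to 3′ on the gene's strand.
Actc1, chr2:114052876-114053125, minus strand: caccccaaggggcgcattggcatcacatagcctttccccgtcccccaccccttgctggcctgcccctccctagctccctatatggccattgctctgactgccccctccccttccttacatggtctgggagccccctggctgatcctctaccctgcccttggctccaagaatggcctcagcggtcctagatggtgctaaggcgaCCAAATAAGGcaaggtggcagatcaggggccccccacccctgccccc
Myl9, chr2:156775214-156775463, plus strand: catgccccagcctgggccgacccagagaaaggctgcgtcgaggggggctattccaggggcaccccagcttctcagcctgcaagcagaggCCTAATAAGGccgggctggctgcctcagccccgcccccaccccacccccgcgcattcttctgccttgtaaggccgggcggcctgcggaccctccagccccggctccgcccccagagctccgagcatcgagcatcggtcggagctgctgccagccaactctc
Cnn2, chr10:79988350-79988599, plus strand: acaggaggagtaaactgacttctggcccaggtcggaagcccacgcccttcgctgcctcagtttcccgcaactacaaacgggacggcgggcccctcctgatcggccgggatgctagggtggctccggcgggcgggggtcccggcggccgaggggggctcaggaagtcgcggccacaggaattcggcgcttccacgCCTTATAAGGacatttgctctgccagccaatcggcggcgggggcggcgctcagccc
The first base of the box lies 47 bases before the start in Actc1, 161 in Myl9 and 56 in Cnn2. In Acta1, which was not past the spread and whose promoter is not printed, it lies 73 bases before the start. Among the 135 well-measured genes with a box in this window, 4 were past the spread upward (2.96%), Actc1 and Myl9 among them, and 1 downward (0.741%), against 1.03% and 0.775% of all 11094 well-measured genes with a promoter in the table. Their median differences were -0.04 against EGFP and -0.03 against mock. A match describes letters in this window and shows nothing about binding.

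**Figure D3:**
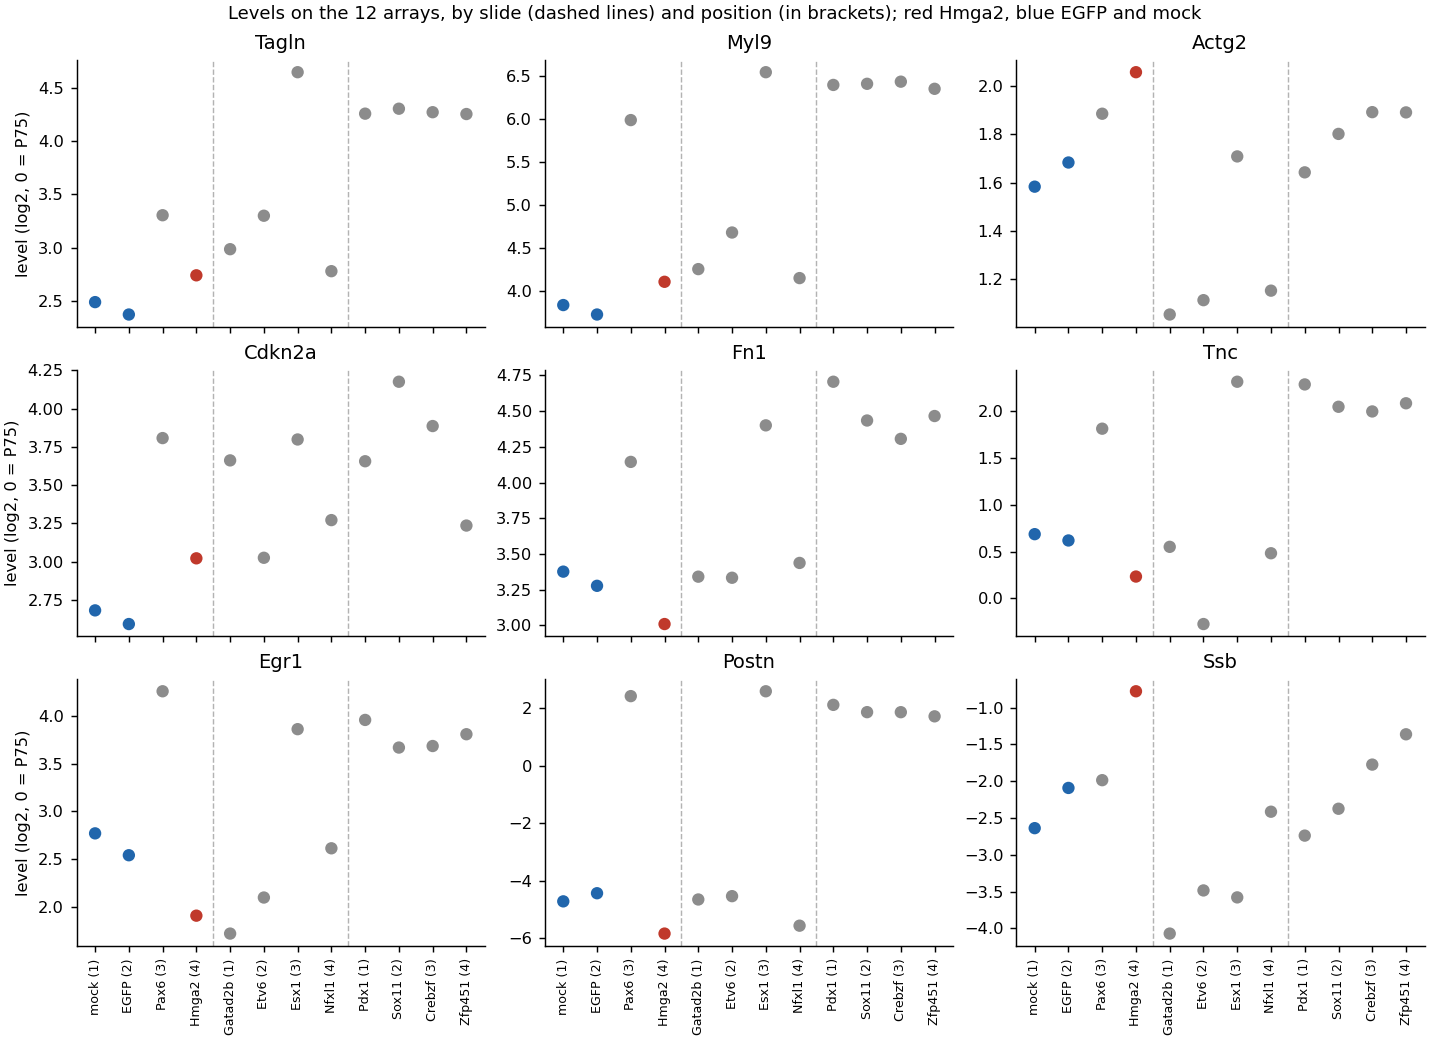
Points are log2 levels on the 12 arrays for 9 genes, in the order of slide and position (number in brackets), with Hmga2 in red and both controls in blue. For Fn1 and Postn the Hmga2 array is the lowest of the 12, for Actg2 and Ssb the highest, and for Tagln, Myl9 and Cdkn2a it lies above both controls but below the other 9.

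Cdkn2a was also above both controls. Its level was 3.02 on Hmga2, 2.59 on EGFP and 2.68 on mock, 1.31-fold above their mean, with the other 9 arrays between 3.03 and 4.17. Its position differences were -0.07 and -0.68, so the excess was larger, 0.74, after they were subtracted. Those differences also hold the overexpressed factors. On slide 3 Cdkn2a read 3.24 on Zfp451, 4.17 on Sox11 and 3.66 on Pdx1. On slide 2 it read 3.27 on Nfxl1, 3.03 on Etv6 and 3.66 on Gatad2b. Its neighbour Cdkn2b, which encodes p15Ink4b, differed by 0.05 from EGFP and 0.12 from mock. Among CDK inhibitors and p53 genes, Trp53 itself read 2.87, 2.63 and 2.64 on Hmga2, EGFP and mock, just past the spread, while its second probe, also well above background on all 12 arrays, read lower on Hmga2, at 0.07, 0.24 and 0.48. Cdkn1a, the inhibitor p21, differed by 0.44 and 0.22. Btg2, an antiproliferative gene induced by p53, read 0.62, 0.90 and 0.92 and was past the spread downward. Trp53 and Btg2 did not stay past it after subtraction.

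Of 18 measured genes named in the literature as Hmga2 targets or partners, Cdkn2a was the 1 past the spread. The list's medians were 0.00 against EGFP and 0.02 against mock, with 8 members above both controls and 7 below. Igf2bp2, an RNA-binding protein whose gene Hmga2 is known to activate, differed by 0.02 and 0.01. Snai1, Snai2 and Twist1, regulators of the epithelial to mesenchymal transition, differed by between -0.11 and 0.02. Ccna2 and Ccnb2, cyclins of late cell cycle phases, each differed by -0.17 to -0.13 without passing the spread. E2f1, a driver of entry into S phase, differed by 0.17 and 0.19, and Igf2 by -0.37 and -0.45. None of these but Cdkn2a passed the spread between the controls at its level.

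Other genes stayed above both controls after subtraction at levels where the spread is small. Mybbp1a, a nucleolar protein of ribosome synthesis, read 3.17 on Hmga2, 2.68 on EGFP and 2.63 on mock, and no other array exceeded 3.01. Raly, an RNA-binding protein, read 4.41, 3.65 and 3.90, 1.55-fold above the control mean. Gatad2b, at 4.55, and Nfxl1, at 4.41, read no lower for Raly. Larp1, which binds the messages of ribosomal proteins, read 4.28, 3.95 and 3.76, and of its 4 other probes 3 also lay above both controls, while 1 read 0.86, 0.95 and 0.97. Tubb2b, a beta tubulin of young neurons, read 0.96, 0.48 and 0.40, again the highest of the 12 arrays. Prpf19, a spliceosome factor, read 2.57, 2.05 and 2.27, and was higher on Gatad2b, at 2.62, and Nfxl1, at 2.75. Rnd1, a small GTPase that loosens actin fibres, read 0.66, 0.13 and 0.24. Another Rnd1 probe lay between the controls, at -2.57, -2.63 and -2.26, and a dimmer one above both, at -4.91, -5.29 and -5.04. The other well-measured genes with an established name in this set were Ankrd24, Chtf8, H4f16, Iqcg, Mpst, Mrps18b, Prelid1 and Tango6, with folds over the control mean from 1.21 for H4f16 to 1.47 for Chtf8 and Iqcg. Hmga2 was the highest of the 12 arrays for Larp1, Rnd1, Mrps18b and Prelid1. It ranked 2 from the highest for Chtf8, H4f16 and Iqcg, 3 for Ankrd24 and 5 for Mpst. Another Ankrd24 probe differed by -0.45 from EGFP and 0.23 from mock. A dimmer one, not well above background on Hmga2, differed by -1.55 and -0.86. Other probes differed by 0.03 and -0.12 for Mrps18b and by 0.12 from each control for Prelid1.

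Matrix genes lay mostly below both controls. Of 18 measured fibroblast and matrix genes 13 were below both and 5 above, against 43.8% and 34.4% of all well-measured genes. The list's medians were -0.16 against EGFP and -0.12 against mock. The median of EGFP minus mock was 0.07. Fn1, which encodes fibronectin, read 3.01 on Hmga2, 3.28 on EGFP and 3.38 on mock, and was the lowest of the 12 arrays. A second Fn1 probe read 0.28, 0.55 and 0.71, while a dimmer one read -2.45, -2.54 and -2.55, with no deficit. Tnc, tenascin C, a matrix protein of neural stem cell niches, read 0.23, 0.62 and 0.69, with a second probe at -2.24, -1.94 and -1.88. Both genes passed the spread, and Fn1 did so after subtraction too, at -0.30. Tnc kept -0.32, short of its limit of 0.35. The collagens Col1a1, Col5a1, Col5a2 and Col6a1 differed by -0.32 to -0.15, while Col6a2 and Dcn, the proteoglycan decorin, lay above both. After subtraction the medians of the list were -0.17 and -0.01, with 8 members below both and 5 above. The signal summed over the list, relative to the 75th percentile, was 176 on Hmga2, 191 on EGFP and 183 on mock.

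Postn encodes periostin, a matrix protein of fibroblasts, and separated the arrays of the series widely. Its brighter probe, at chr3:54519770-54519829 (mm7), read -5.85 on Hmga2, -4.44 on EGFP and -4.73 on mock, the lowest of the 12 arrays. On Etv6, Gatad2b and Nfxl1 it ran down to -5.57. On Pax6, Esx1, Pdx1, Sox11, Crebzf and Zfp451 it ran up to 2.59. The Hmga2 array thus sat with the 5 arrays of low Postn, and its differences of -1.40 from EGFP and -1.12 from mock were not both past the limit of 1.38 set by the controls in that dim bin, since the difference from mock lay within it. Its position differences were -0.97 and -0.27.

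Egr1, a transcription factor that growth factors induce within minutes, was among the genes lower on the Hmga2 array. Its level was 1.91 on Hmga2, 2.54 on EGFP and 2.77 on mock, 1.68-fold below the control mean. Its position differences were 0.71 and -0.01, and the smaller difference was -0.96 after subtraction. Gatad2b read lower still, at 1.72. Egr1 and Btg2, given above, were the 2 of 18 immediate early genes past the spread, both downward, against 0.783% of all well-measured genes. Of the 18, 8 lay below both controls and 4 above, against 43.8% and 34.4% of all. Fos differed by -0.54 and -0.45 and Egr2 by -0.35 and -0.47, Fosb by 0.77 and 0.40 and Atf3 by 0.55 and 0.28, none of them past the spread, and the list's medians were 0.03 and -0.06.

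Further genes of the brighter 7 bins stayed below both controls after subtraction. Tle1, a Groucho corepressor that Notch and Wnt targets use, read 2.03 on Hmga2, 2.47 on EGFP and 2.41 on mock and was the lowest of the 12, as were both of its other probes. Adnp, a chromatin remodelling factor of neural development, read -0.49, 0.02 and -0.05, with its other probes also below both controls. Galnt11, which starts O-linked glycosylation of Notch receptors, read 0.74, 1.15 and 1.11. Jak2, a kinase of cytokine receptors, read 1.45, 1.72 and 1.79, while a dim second probe read -4.58, -4.57 and -4.60. Fbxo25 and Fbxo27, F-box proteins of ubiquitin ligases, read 2.55, 3.07 and 2.99, and -3.83, -2.50 and -2.44. Wnk1, Wsb1, Zcchc14, Stt3a, Commd8, Eif2a, Atp2a3 and Prh1 completed this set, with folds below the control mean from 1.22 for Commd8 and Eif2a to 2.12 for Prh1. Hmga2 was the lowest of the 12 for Adnp, Galnt11, Jak2, Fbxo25, Fbxo27, Stt3a and Eif2a too. It ranked only 6 from the highest for Atp2a3 and 4 for Prh1, where EGFP and mock each read above every other array. Prh1 was the exception on position, with differences of -0.71 and -0.55 there, and its second probe, dimmer, read the other way at -4.91 on Hmga2, -5.73 on EGFP and -5.94 on mock. Other probes of Wnk1 and Eif2a lay 0.05 to 0.13 above both controls. Those of Stt3a and Commd8 differed from the controls by -0.11 to 0.02, and that of Fbxo25 by -0.04 from each.

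The largest differences belonged to dim genes, where both controls also differed most. Klhl40, which stabilises thin filaments of muscle, read -3.89 on Hmga2, -6.20 on EGFP and -6.27 on mock, 5.07-fold above the control mean, and no other array exceeded -5.93. Sprn, a prion-like protein of the brain, read -3.02, -4.38 and -5.01. Tex19.2, a germ cell gene, read -2.67, -4.00 and -4.18, and Birc7, an inhibitor of apoptosis, -4.56, -5.90 and -5.92. In these 4 the Hmga2 array was the highest of the 12 and the position differences lay between -0.79 and 0.29. Downward, Hnf4a, a nuclear receptor of liver and gut, read -6.04, -4.01 and -4.15, 3.90-fold below, but its other probes were not well above background on any array. Ugt3a2, Tmem30b, Acot4, Slc24a4, Defb3 and Gucy1b2 were 2.78- to 3.99-fold below. The second Tmem30b probe, well above background on all 12 arrays, read the other way, at -4.22 on Hmga2, -5.47 on EGFP and -5.76 on mock. Gpr101, Prok1, Slc28a3, Taar4 and Tff1 were 2.10- to 3.18-fold below and also stayed past the spread after subtraction. For Hnf4a, Acot4, Slc24a4, Defb3, Gucy1b2, Gpr101, Prok1 and Slc28a3, EGFP and mock each read above every other array. Hmga2 was the lowest of the 12 for Slc24a4 and Defb3, but ranked 10 from the highest for Acot4 and 8 for Gpr101. For Hnf4a, Pdx1 read lower than Hmga2, at -6.53. Lrtm2, Cd3e and Prl3b1 above, and Pcdh12, Pdzd7, Scd3 and Ankrd29 below, were within the 12 largest in their direction but did not stay past the spread after subtraction.

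**Figure D4:**
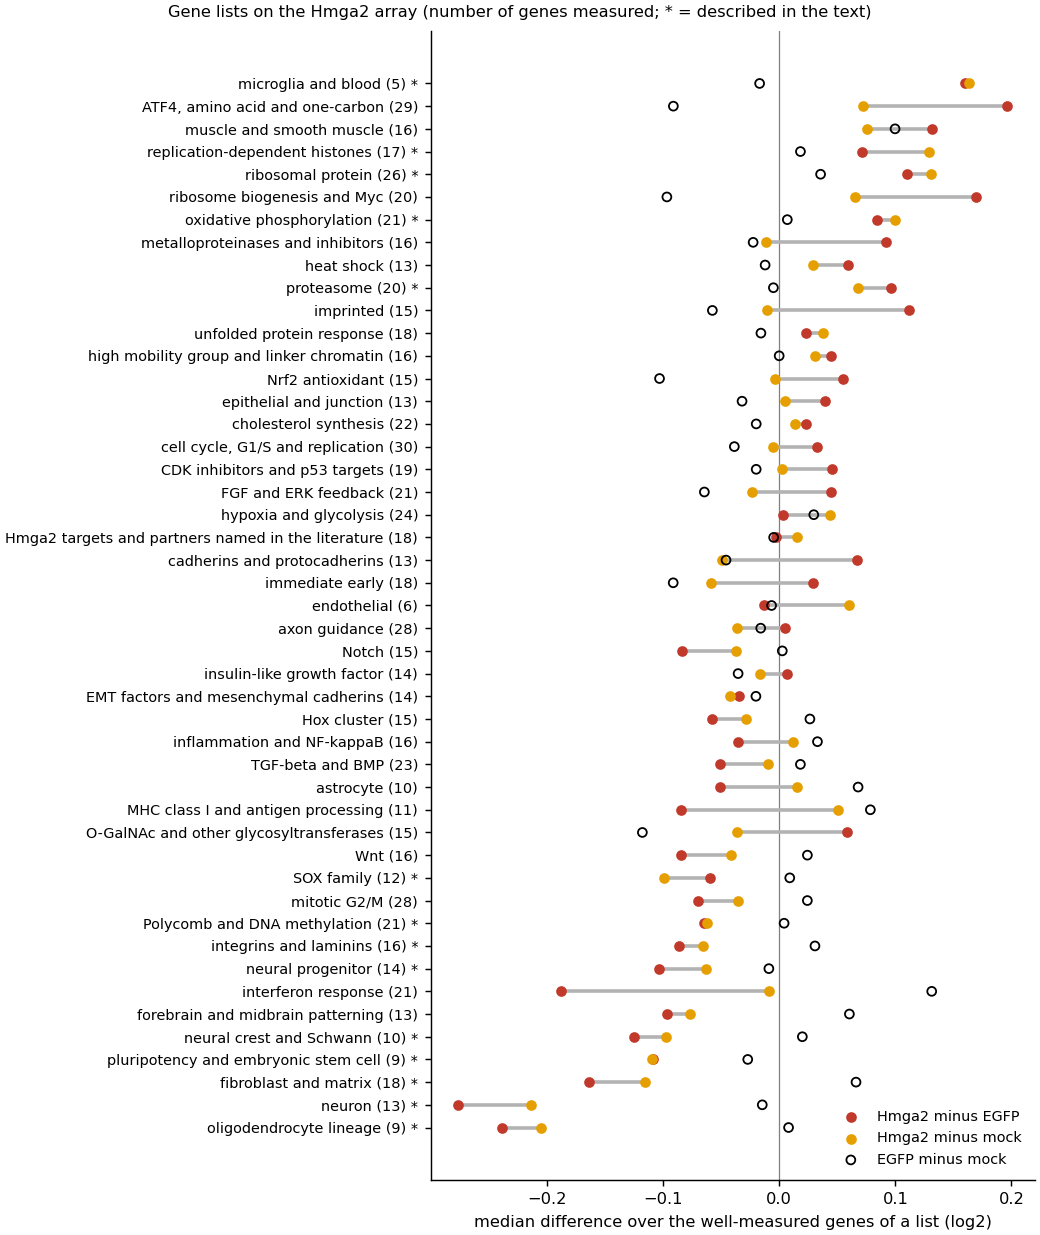
Points are median log2 differences over the well-measured genes of each list, Hmga2 against EGFP (red), Hmga2 against mock (orange) and EGFP against mock (open), with the number of genes in brackets. Ribosomal protein, oxidative phosphorylation and proteasome genes lie on the right of 0 against both controls, and neuron, oligodendrocyte and matrix genes on the left.

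Small shifts shared by many genes were read from 47 gene lists. A list is described where its medians against both controls had one sign and the smaller exceeded 0.1, or exceeded 0.05 and 2 times the EGFP minus mock median. Of the 47, 14 met this, 5 upward and 9 downward. Medians of all lists ran from -0.23 to 0.20 against the control mean, and EGFP minus mock medians from -0.12 to 0.13. The sizes are thus near those between the controls. Over all well-measured genes the median was -0.02 against each control, 34.4% lay above both and 43.8% below both. Past the control spread were 1.45% of them upward and 0.783% downward.

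Housekeeping genes of translation, respiration and protein turnover were mostly above both controls, except with quantile normalization. Of 26 ribosomal protein genes 24 were above both and 1 below, against 34.4% and 43.8% of all genes, with medians of 0.11 and 0.13. Rplp1 read 0.24 and 0.29 above EGFP and mock, Rpl23 0.21 and 0.34, and Rps6 0.18 and 0.29, while Rpl4 differed by -0.02 and 0.00. No member was past the spread. Oxidative phosphorylation genes had 16 of 21 above both and medians of 0.08 and 0.10. Atp5b, the catalytic subunit of ATP synthase, and Ndufs3, a subunit of complex I, were past the spread but not after subtraction. Proteasome genes had 16 of 20 above both, medians of 0.10 and 0.07 and none past the spread. These lists are among the brightest, with median levels from 5.02 to 7.32, where the Hmga2 array read high in general. After the trend with level was removed their medians fell to 0.05 and 0.10 for ribosomal proteins, 0.04 and 0.07 for oxidative phosphorylation and 0.04 and 0.04 for the proteasome. Position differences left them in place, at 0.12 and 0.13, 0.10 and 0.10, and 0.09 and 0.08. With quantile normalization, however, their medians against the control mean were 0.01 for ribosomal proteins, 0.02 for oxidative phosphorylation and 0.01 for the proteasome, and 12 of 26, 10 of 21 and 9 of 20 genes were above both controls. With scaling to the median 26 of 26, 17 of 21 and 17 of 20 were above both, and with normexp 24, 16 and 16. Symbol families gave the same picture. Above both controls were 39 of 46 Rpl, 32 of 42 Rps, 38 of 49 Mrpl (mitochondrial ribosome), 16 of 23 Cox (cytochrome c oxidase), 11 of 13 Ndufa and 9 of 10 Ndufb genes, some of which the lists also hold. With quantile normalization these counts were 19 of 46 Rpl, 18 of 42 Rps, 28 of 49 Mrpl, 11 of 23 Cox, 5 of 13 Ndufa and 4 of 10 Ndufb genes.

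Replication-dependent histone genes, whose messages are made in S phase, had 11 of 17 members above both controls and medians of 0.07 and 0.13. H2aw, H4c14 and H4f16 were past the spread, and H4f16 stayed so. H1f2 and H2bc21 differed by -0.34 to -0.20. Histone genes share sequence, so a probe may read more than one of them. Replication genes of the G1/S list were not shifted alike, with medians of 0.03 and -0.01 over 30 genes. Mitotic genes had medians of -0.07 and -0.04, with 17 of 28 below both and none past the spread.

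**Figure D5:**
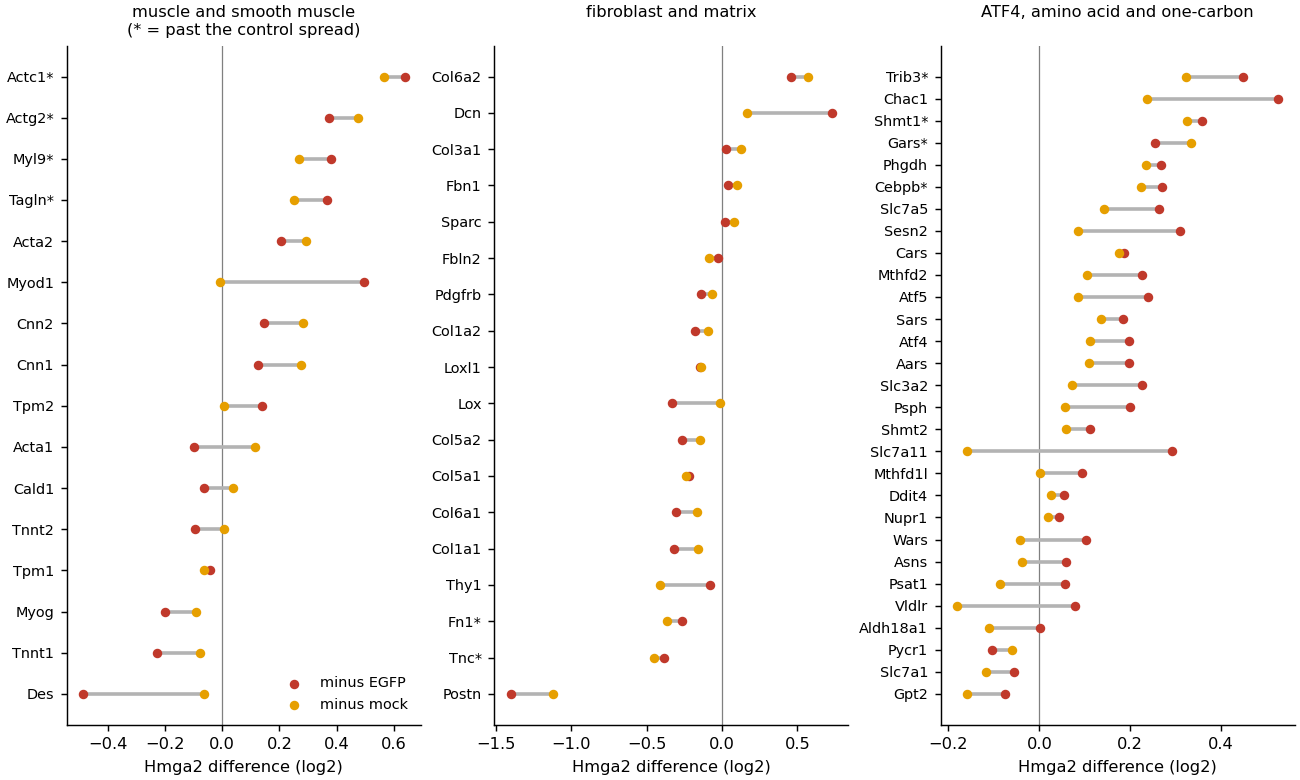
Each row is a well-measured gene of 1 of 3 lists, with its log2 difference on the Hmga2 array from EGFP (red) and from mock (orange), and an asterisk where it is past the control spread. Tagln, Myl9, Actg2 and Actc1 lie at the top of their list and Postn, Tnc and Fn1 at the bottom of theirs, while 20 of 29 ATF4 list genes lie above both controls.

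The ATF4 list holds genes of amino acid supply, aminoacyl-tRNA synthesis and one-carbon metabolism that the stress factor ATF4 is known to induce. It did not meet the rule, because mock stood above EGFP by a median of 0.09, and is given because 20 of its 29 genes were above both controls and 3 below. This choice was made after the values were seen. Its medians were 0.20 against EGFP and 0.07 against mock. Trib3, a pseudokinase induced by ATF4, read 2.42 on Hmga2, 1.97 on EGFP and 2.10 on mock. Shmt1, which passes one-carbon units from serine to folate, read 1.38, 1.03 and 1.06. Cebpb, a transcription factor, read 3.74, 3.47 and 3.52, and Gars, the glycyl-tRNA synthetase, 2.14, 1.89 and 1.81. These 4 were past the spread upward and none downward, although none stayed past it after subtraction. Phgdh, the first enzyme of serine synthesis, differed by 0.27 and 0.24 and Chac1, which degrades glutathione, by 0.53 and 0.24, neither past the spread. Asns and Psat1, also targets of ATF4, lay between the controls. After subtraction the medians were 0.17 and 0.09, with 21 above both and 3 below. Ribosome biogenesis genes showed the same pattern against the controls, with 14 of 20 above both, medians of 0.17 and 0.07 and mock above EGFP by 0.10. Nop58 and Nolc1, nucleolar proteins, differed by 0.29 and 0.20, and by 0.25 and 0.16, and none was past the spread.

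The neuronal, oligodendrocyte and neural crest lists lay below both controls at low levels, whereas the astrocyte list had 3 of 10 genes above both, 4 below and medians of -0.05 against EGFP and 0.02 against mock. Oligodendrocyte lineage genes had 7 of 9 below both and medians of -0.24 and -0.21, at a median level of -4.26. Sox10, which drives that lineage and the neural crest, read -4.89 on Hmga2, -3.91 on EGFP and -3.97 on mock, past the spread but not after subtraction, and its other probe was at background on these arrays. Pdgfra, the growth factor receptor of the precursors, differed by -0.24 and -0.23. Neuronal genes had 8 of 13 below both and medians of -0.28 and -0.21, with Gap43, a growth cone protein, at -0.73 and -0.56 and Stmn3, which binds tubulin, at -0.32 and -0.34, none past the spread. With the level trend removed, the medians were -0.12 and -0.15 for the oligodendrocyte list and -0.18 and -0.17 for the neuronal list. With the normexp correction the oligodendrocyte medians were -0.04 against EGFP and -0.13 against mock, and the neuronal ones -0.03 and -0.10. The neural crest list had 7 of 10 below both and shares Sox10 with the oligodendrocyte list.

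The neural progenitor list was split. Vim was past the spread upward, as given above, while Pax6 read -2.97 on Hmga2, -2.61 on EGFP and -2.60 on mock, and Sox2, a factor of neural stem cells, 0.35, 0.50 and 0.47, neither past the spread. Of its 14 measured genes 8 lay below both controls and 4 above, with medians of -0.10 and -0.06 that became 0.00 and 0.01 after the position differences were subtracted. Polycomb and DNA methylation genes had 12 of 21 below both and medians of -0.07 and -0.06. Dnmt3b, a DNA methyltransferase, differed by 0.35 and 0.27 and was not past the spread. Medians of the SOX genes, the integrins and laminins and the pluripotency genes lay between -0.11 and -0.06, with none but Sox10 past the spread, and after subtraction they were 0.01 against EGFP and -0.11 against mock for the SOX genes and 0.17 and 0.04 for the pluripotency genes. The microglia and blood list rested on 5 measured genes, all above both controls by 0.10 to 0.55, while Cx3cr1, Itgam, Laptm5 and Tyrobp, which define microglia and blood cells, were not well above background on any of the 3 arrays. Interferon response genes differed between the controls instead, with medians of -0.19 against EGFP, -0.01 against mock and 0.13 for EGFP minus mock.

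No chromosome met the rule for a description. Medians of the 20 chromosomes ran from -0.04 to 0.00 against the control mean and from -0.02 to 0.01 between the controls. Of 166 symbol families with at least 10 measured genes, 30 met it, 9 upward and 21 downward. Downward, members lay mostly on one side in Parp, with 9 of 11 below both and none above, Casp (caspases), with 9 of 11 below, Trappc (vesicle tethering), with 11 of 14, and Mtmr (lipid phosphatases), with 9 of 11. With quantile normalization 9, 8, 12 and 9 members of these families were below both. For Casp the EGFP minus mock median was 0.12, close to the shift of -0.18 and -0.12.

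Since Hmga2 binds AT-rich DNA, the differences were read against the GC content of promoters. RefSeq promoters were matched for 11094 of the 17502 genes. In the group of lowest GC content of 5 groups, from 19.6% to 50.8%, the medians were -0.02 against EGFP and -0.03 against mock, and in the group of highest, from 68.4% to 91.6%, -0.01 and -0.02. The lowest group was also the dimmest, at a median level of -1.38 against 0.72 in the highest, and 1.47% of its genes were past the spread downward, against 0.593% in the highest. The motif AATT, which reads alike on both strands, stood in the 250 bases before the start of 47.8% of promoters, and genes with it had medians of -0.02 and -0.02. The files hold no probe sequences, so probe GC content was not examined.

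Among the 2034 genes well above background on only 1 or 2 of the 3 arrays, folds are bounds against the lowest signal well above background, and those printed are against the mean of both controls unless 1 is named. At least 2-fold beyond both controls, 51 were higher on the Hmga2 array, 2.51%, and 37 lower, 1.82%. S1pr4, a sphingosine-1-phosphate receptor of immune cells, read -2.38 on Hmga2 and was not well above background on any other array, so it was at least 19.6-fold higher, and at least 18.2-fold against the control with the smaller bound. Zan, a sperm protein, was at least 15.8-fold higher, Lrrc6 at least 10.9-fold and Tnip3 at least 9.75-fold. Sox6, a SOX factor of neural progenitors and cartilage, read -2.80 on Hmga2 and was at least 13.8-fold higher. EGFP, at -6.59, was well above background for Sox6, mock, at -7.41, was not, and 7 of the other 9 arrays were, with the highest at -3.76. The other Sox6 probes were not well above background on any array. In the other direction Galnt14, an enzyme that starts O-linked glycosylation, was not well above background on Hmga2 and read -3.31 on EGFP and -3.87 on mock. It was thus at least 8.94-fold lower than the mean of both controls, and at least 7.36-fold lower than mock alone. It was well above background on 5 of the other 9 arrays, reached -2.74 there, and had a position difference of -5.40 on slide 2. The other Galnt14 probe was not well above background on any array. Ceacam19 was at least 7.33-fold lower, Nkx1-2 at least 6.41-fold, Bnip5 at least 3.70-fold and Foxp2, a forkhead factor of neurons, at least 3.46-fold. Another Nkx1-2 probe lay between the controls, at -5.84 on Hmga2, -4.68 on EGFP and -6.39 on mock, the last not well above background. All 10 rest on low signals with 1 array for each culture, and their error between cultures was not measured.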

How the data were processed

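The deposited spot values are background-subtracted Cy3 intensity values from Agilent Feature Extraction 10.7.3.1, per the file headers. The deposited value table equals that intensity on all arrays. The same software set the flags used here (outlier, saturated, well above background), per the file headers. Probe positions refer to mm7.

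Outlier and control spots were left out and repeated spots averaged, which gave 41174 probes from 43379 spots. The log2 intensity was set relative to the 75th percentile of each array, which lay between 823 and 1026 units. Probes were named by RefSeq accession (22951), current symbol (6659), synonym (3109) or as the files name them (8455), and the brightest probe stood for a gene. Comparisons, limits and lists are as defined beside the results. With 1 array for each group no test was run, and the number of arrays limits the precision.

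The text names, among genes past the control spread, the 12 higher and 12 lower with the largest smaller difference, without clones, predicted genes or olfactory and vomeronasal receptors. It also names those still past it after position differences were subtracted, members of described lists, the 5 dim genes in each direction with the largest bound, and Hmga2, Postn, Sox6 and Galnt14. The genes still past the spread after subtraction were added after the data were seen. Some genes that meet these rules are not reported here. The members and lists were chosen with earlier results of these data known.

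Alternatives were quantile normalization and a normexp correction with offset 50 (limma 3.58.1 in R 4.3.3), scaling to the median, the mean of all probes, other detection filters, each control alone, a 3-fold rule and a 95th percentile limit. Chosen after the data were seen were subtraction of the level trend and of position differences.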

Additional observations from a re-analysis of the deposited data

How the results depend on the processing

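No paired analysis was possible because each group held 1 array and the labels carry no replicate numbers. With 1 array for each group nothing could be left out but a control. Genes past 2-fold numbered 41 higher and 81 lower. They numbered 4 and 3 with the normexp correction, 26 and 49 when detection on all 12 arrays was required, 83 and 144 against EGFP alone and 92 and 147 against mock alone. With dim values raised to the floor 92 were higher, and at 3-fold 6 were higher and 11 lower. Genes past 1.5-fold, 159 higher and 280 lower, numbered 43 and 21 with normexp, 314 and 540 against EGFP alone and 361 and 449 against mock alone. The higher were 105 on the genes seen on all 12 arrays and 269 with dim values raised. Genes past the control spread, 253 higher and 137 lower, numbered 440 and 328 against EGFP alone, 460 and 267 against mock alone and 786 and 691 with the 95th percentile as limit. After position differences were subtracted 80 were higher. Against a single control or with a looser limit more genes pass by construction. For the others the cause was not tested. Of the 253 higher genes, 203 stayed with quantile normalization, 225 with normexp and 174 with the mean of all probes.

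List medians against the control mean moved as follows. With quantile normalization they were -0.0076 for SOX genes, -0.12 for neuronal, -0.15 for oligodendrocyte, -0.10 for pluripotency, 0.012 for ribosomal protein, 0.021 for oxidative phosphorylation and 0.014 for proteasome genes. With normexp they were -0.0030 for SOX, -0.083 for neuronal, -0.13 for oligodendrocyte, 0.052 for muscle, 0.15 for microglia and blood and -0.068 for neural crest genes. With the mean of all probes they were -0.12 for neuronal, -0.18 for oligodendrocyte and 0.12 for microglia and blood genes, and reversed to 0.0039 for pluripotency genes and to 0.013 for integrins and laminins. On genes seen on all 12 arrays they were -0.11 for neuronal and -0.18 for oligodendrocyte genes, and reversed to 0.0020 for SOX genes. Against EGFP alone they were 0.071 for histone and -0.28 for neuronal genes, and against mock alone -0.10 for SOX and 0.072 for ATF4 genes. With position differences subtracted they were -0.10 for neuronal, -0.13 for oligodendrocyte, -0.11 for matrix, 0.26 for microglia and blood and -0.025 for integrin and laminin genes. They reversed to 0.035 for neural progenitor, 0.0064 for SOX and 0.14 for pluripotency genes, and Rpl30 reversed to -0.10. With the level trend subtracted they were -0.00045 for SOX, -0.11 for neuronal, -0.15 for oligodendrocyte, 0.24 for microglia and blood, -0.10 for pluripotency, -0.074 for neural crest, 0.066 for ribosomal protein and 0.051 for oxidative phosphorylation genes. No other described list or named gene past the spread changed direction. Signal over background limits the dim bins, where a median of 0.24 separated both controls.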
